A study of Homo sapiens with 2 samples.

Results

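The DNA replication machinery was examined as a set of 53 genes, chosen by name for what their products do at the replication origin and fork, among the 54261 genes listed in the count table of the series. RNA-seq was carried out on RKO cells, a human colorectal carcinoma cell line grown in DMEM with 10% fetal bovine serum, transfected either with the negative control siRNA of the study (si-NC) or with one that targets the splicing factor SRSF2 (si-SRSF2). Both groups therefore carried a synthetic siRNA, and each was represented by 1 library, so that no difference between them had a replicate check and none was tested. The libraries were made with a stranded mRNA kit and sequenced as 150 bp paired-end reads. All 53 genes reached a mean of 1 CPM, as did 12620 genes of the whole table, against which the set was read below.

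In each cell cycle the origin recognition complex (ORC), with CDC6 and CDT1, loads the ring-shaped MCM2-7 helicase onto DNA, and in S phase CDC45 and the GINS complex join it to make the active helicase. DNA polymerase alpha-primase lays down short primers, the clamp loader RFC places the sliding clamp PCNA on them, and DNA polymerases epsilon and delta copy the leading and the lagging strand. FEN1 and LIG1 join the lagging-strand pieces, RPA covers single-stranded DNA, and ribonucleotide reductase and thymidylate synthase supply deoxynucleotides. Many of these genes are known targets of E2F transcription factors, and their transcripts are characteristic of dividing cells.

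The siRNA sequences are shown because each one defines a group. The study lists 1 siRNA under each name; the label of the si-SRSF2 library carries a number whose meaning is not given, so that the use of the listed siRNA in it is assumed in what follows. The strands listed are:
si-NC: uucuucgaacgugucacgutt
si-SRSF2: uccaaauccaggucgcgautt
The complementary strands, which act as guides, are given here with the seed (bases 2 to 8) in capitals:
si-NC guide: aCGUGACAcguucgaagaa
si-SRSF2 guide: aUCGCGACcuggauuugga
The full site of the si-SRSF2 guide lay at position 769 of the canonical SRSF2 transcript and in no other canonical transcript. SRSF2 itself (chr17:76734115-76737333, minus strand, GRCh38, GENCODE 44) had 1964 counts with si-NC and 713 with si-SRSF2, or 98.5 and 49.1 CPM. Its log2 ratio of si-SRSF2 over si-NC was -0.997 (95% interval -1.13 to -0.88), so that 49.9% of the control level was left. The 3' UTRs of the 53 replication transcripts held no 7-base match to the seed of the si-SRSF2 guide, against 0.259% of the 10425 tested genes with a 3' UTR, and none to the seed of the si-NC guide, against 3.08%. A match to the seed of the listed strand of si-SRSF2 was present in 6 of 53 members (11.3%), namely GINS2, GINS3, CDC6, ORC4, TIMELESS and CHAF1B, and in 14.8% of tested genes. The median log2 ratio was -0.15 in those 6 and -0.08 in the others, and over all tested genes it was -0.09 with such a match and -0.03 without.

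The libraries held 19931360 counts (si-NC) and 14512802 counts (si-SRSF2), in 19882 and 19467 genes. CPM values were counts per 1000000 of the TMM-scaled library, log2 ratios were taken after adding 0.5 CPM, and each interval is the 95% Clopper-Pearson interval of the ratio of both counts, which covers counting error only. A count of 0 allows a level of up to 0.151 CPM (si-NC) or 0.207 CPM (si-SRSF2) (3 counts). The labelled cell type was checked with 9 intestinal epithelial markers, of which EPCAM, KRT8, KRT18 and CDX2 had 147 or more counts in each library. All 4 had log2 ratios above 0, as did 46.2% of all tested genes, but only KRT8 (547 and 618 counts, log2 ratio 0.62) had an interval above 0 and those of the other 3 held 0. Their summed level was 78.8 CPM with si-NC and 96.5 CPM with si-SRSF2; their part in the results below was not tested. CDH1 had 10 and 6 counts, KRT19 and VIL1 had 1 count in each library, and KRT20 and LGALS4 had 0, so that these markers were close to absent. Of the markers of other cell types, COL1A1 had 13 counts in each library, PTPRC had 2 and 0, and PECAM1, CD3E and ALB had 0.

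Most replication genes were slightly lower in si-SRSF2, and few differed by much. Their transcripts made up 0.404% of all counts with si-NC and 0.371% with si-SRSF2. Summed over the 53 genes, the level went from 4038 to 3711 CPM, a log2 ratio of -0.12 (95% interval -0.14 to -0.11). A log2 ratio under 0 was found for 43 of 53 genes (81.1%), against 53.8% of all tested genes and 55.6% of the 7917 genes with at least 20 CPM. The median log2 ratio was -0.08 for the set and -0.02 for all tested genes, and the middle of the set ranged from -0.24 (lower quartile) to -0.02 (upper quartile), against -0.19 to 0.15 for all tested genes. In these bulk libraries, fewer cells in S phase and less RNA per cell cannot be told apart.

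Levels at least 20% lower were found for 9 of 53 members (17.0%), WDHD1, POLA2, POLA1, FEN1, MCM6, MCM10, ORC5, GINS3 and CLSPN, where all tested genes gave 13.3% and genes with at least 20 CPM gave 9.02%. At least 25% higher was 1 member (1.89%), TIPIN, where all tested genes gave 11.8% and genes with at least 20 CPM gave 6.28%. These limits were set on the log2 ratio. CLSPN fell short of the lower limit with upper-quartile scaling. With a pseudocount of 2 CPM, CLSPN, GINS3 and TIPIN fell short of theirs. Only WDHD1 (1.89%) was at least 1.5-fold lower, against 3.52% of all tested genes, and 0 members were at least 1.5-fold higher, against 4.18%. Of the 7917 genes with at least 20 CPM, 102 were at least 1.5-fold lower and 97 at least 1.5-fold higher. The interval lay wholly below 0 for 23 members (43.4%), against 26.7% of all tested genes and 32.7% of genes with at least 20 CPM. It lay wholly above 0 for 3 members (5.66%), TIPIN, MCM3 and TYMS, against 21.0% and 23.9%. The interval of PCNA began just under 0, at -0.0002. The share of members at least 20% lower was thus close to that of all tested genes, and above that of genes with at least 20 CPM, the level that 51 of the 53 members reached. The share under 0 was above both. Some counts are uncertain by sequence. Over 10% of the sampled 31-base stretches occurred in another gene for 13 members (ORC3, ORC4, ORC6, RFC2, POLA2, PRIM1, PRIM2, POLD1, FEN1, RRM2, UHRF1, TIPIN and CHAF1B), and over 10% of the exon length was overlapped by another gene, on either strand, for 8 (MCM2, GINS3, GINS4, RFC5, POLA2, PRIM1, TYMS and TIPIN). Without replicates, the spread between cultures that these differences should be read against is unknown.

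**Figure D1:**
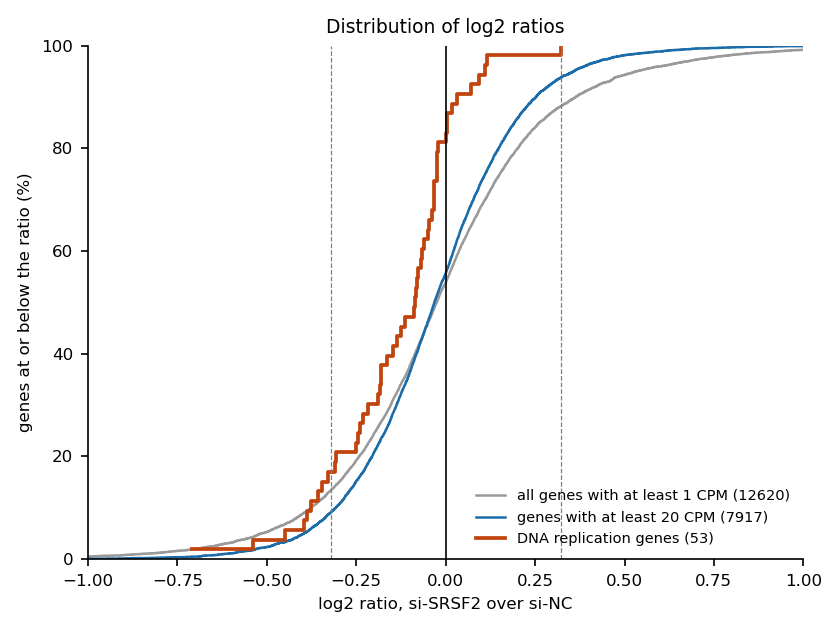
Cumulative share of genes (vertical axis, percent) at or below each log2 ratio of si-SRSF2 over si-NC (horizontal axis) for the 53 DNA replication genes, all 12620 tested genes and the 7917 genes with at least 20 CPM, with dashed lines at 20% lower and 25% higher. The curve of the replication genes reaches 81.1% at 0, where that of all tested genes reaches 53.8%, and it has 1 gene beyond the right dashed line.

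**Figure D2:**
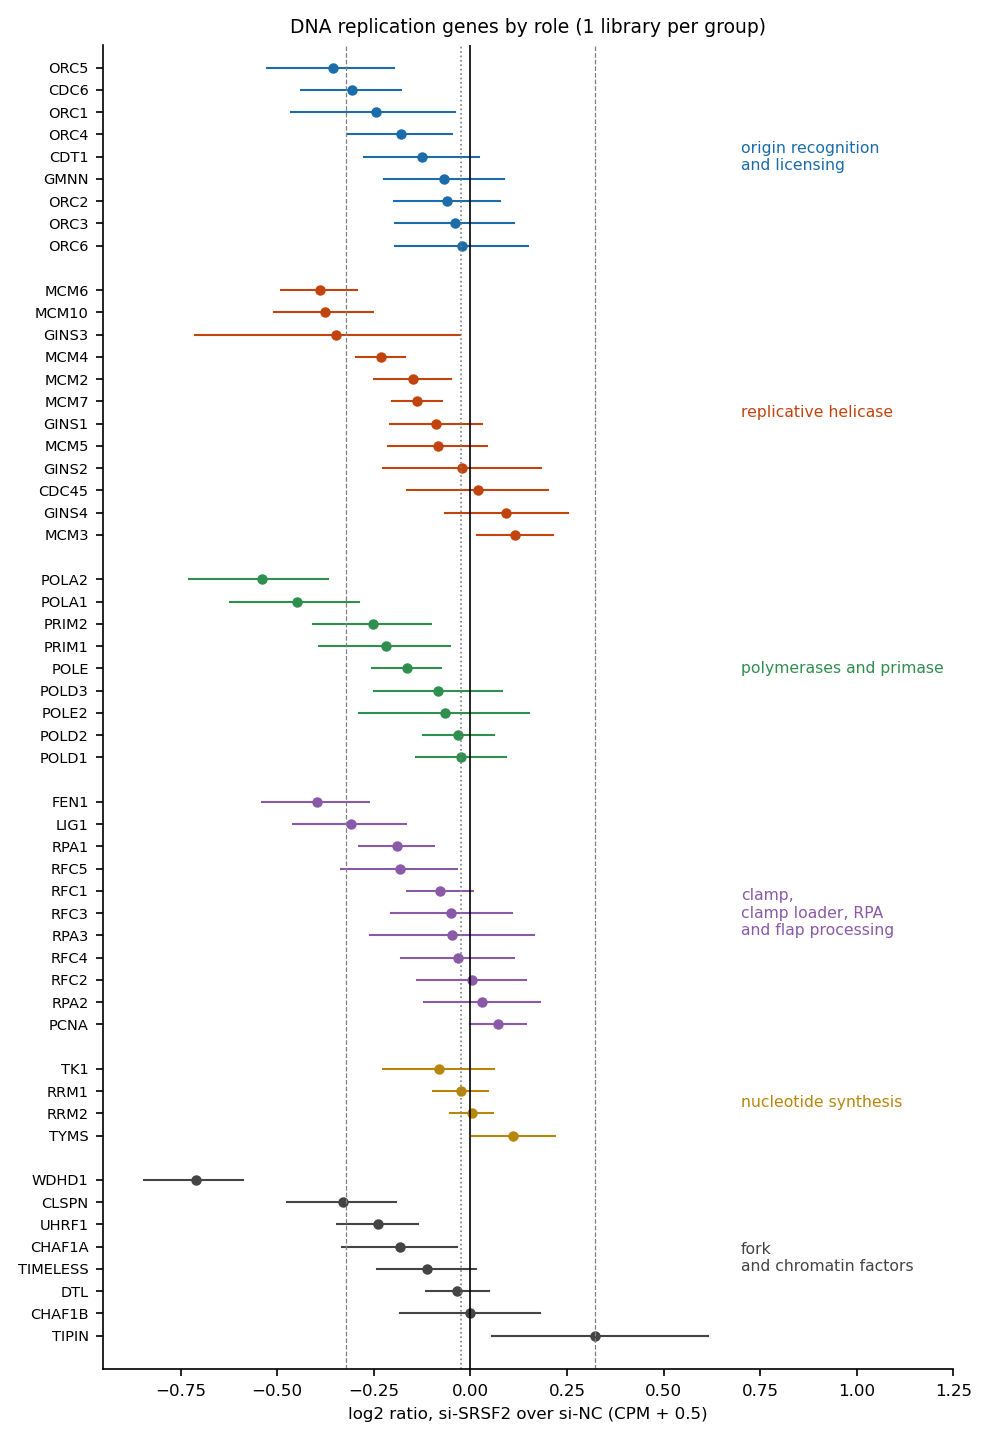
Log2 ratio of si-SRSF2 over si-NC (points, CPM + 0.5) with the 95% counting interval (lines) for each of the 53 genes, grouped by role; 1 library per group. The solid line marks 0, the dotted line the median of all tested genes (-0.02) and the dashed lines 20% lower and 25% higher; WDHD1 at -0.71 and TIPIN at 0.32 are the ends of the range.

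The strongest difference in the set was that of WDHD1 (chr14:54938949-55027105, minus strand), also known as AND-1, which ties DNA polymerase alpha to the helicase at the fork. WDHD1 had 1608 counts with si-NC and 713 with si-SRSF2, or 80.7 and 49.1 CPM. The level was 39.1% lower in si-SRSF2, with a log2 ratio of -0.71 (95% interval -0.85 to -0.59). Of all tested genes 1.90% had a ratio as low or lower, and of genes with at least 20 CPM 0.467%. No sampled 31-base stretch of its transcript occurred in another gene and no other gene overlapped its exons, so that its reads had no competing feature in this check. Counted against TIMELESS, another fork factor of the same library, WDHD1 went from 130 counts per 100 in si-NC to 85.9 in si-SRSF2, a ratio that does not depend on library scaling and was chosen with the values known (1.30, 95% interval 1.21 to 1.41, and 0.859, 0.776 to 0.951).

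The next lowest members were the polymerase and accessory subunits of DNA polymerase alpha-primase, the enzyme that WDHD1 holds at the fork. POLA2 (chr11:65261913-65305959, plus strand), the accessory subunit, had 771 counts with si-NC and 384 with si-SRSF2, and its level went from 38.7 to 26.5 CPM, 31.6% lower (log2 ratio -0.54, interval -0.73 to -0.37). POLA1 (chrX:24693873-24996986, plus strand), the catalytic subunit, had 856 and 455 counts and went from 43.0 to 31.3 CPM, 27.0% lower (log2 ratio -0.45, interval -0.62 to -0.29). Of all tested genes, 4.27% were as low as POLA2 and 6.85% as low as POLA1. Of genes with at least 20 CPM, 1.74% were as low as POLA2 and 3.36% as low as POLA1. The primase subunits differed less. PRIM1, which makes the RNA primer, had 744 and 465 counts (log2 ratio -0.22, interval -0.39 to -0.05), and its regulatory partner PRIM2 had 937 and 572 counts (log2 ratio -0.25, interval -0.41 to -0.10). All 4 subunits had intervals below 0, where 26.7% of all tested genes and 32.7% of genes with at least 20 CPM did. Summed over the 4 subunits the level went from 166 to 129 CPM (log2 ratio -0.36, interval -0.44 to -0.28). Of the sampled 31-base stretches, 59.9% of those of POLA2, 46.1% of PRIM2 and 30.7% of PRIM1 also occurred in other annotated genes, including an overlapping same-strand gene for POLA2 and PRIM1, so their counts are uncertain; POLA1 had no such stretch and no exon overlap.

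The replicative polymerases were closer to level than DNA polymerase alpha. DNA polymerase delta, which copies the lagging strand, had log2 ratios of -0.02 for its catalytic subunit POLD1 (1445 and 1035 counts), -0.03 for POLD2 (2316 and 1650 counts) and -0.08 for POLD3 (738 and 507 counts). All 3 intervals included 0, as did those of 6608 of the 12620 tested genes and 3440 of the 7917 with at least 20 CPM. The summed level was 226 CPM with si-NC and 220 CPM with si-SRSF2. For DNA polymerase epsilon, the catalytic subunit POLE went from 133 to 119 CPM (2653 and 1723 counts, log2 ratio -0.16, interval -0.25 to -0.08), and POLE2 had 420 and 292 counts with a log2 ratio of -0.07. Within each library, POLA1 and POLA2 together had 39.7 counts per 100 counts of POLD1 and POLE in si-NC (ratio 0.397, 95% interval 0.375 to 0.421) and 30.4 in si-SRSF2 (ratio 0.304, 0.281 to 0.329). These genes were chosen with their values known, the intervals cover counting error only, and over 10% of the sampled 31-base stretches of POLA2 and of POLD1 occurred in other genes. All 9 polymerase and primase genes had a log2 ratio under 0, where all tested genes gave 53.8%, with a median of -0.16, the lowest of the 6 roles. Of their intervals 5 of 9 (55.6%) lay below 0, against 26.7% of all tested genes and 32.7% of genes with at least 20 CPM.

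Origin recognition and licensing genes were also all under 0, against 53.8% of all tested genes, and their median log2 ratio was -0.12 over 9 genes. The intervals of ORC5, CDC6, ORC1 and ORC4 lay below 0, 4 of 9 (44.4%), against 26.7% of all tested genes and 32.7% of genes with at least 20 CPM. ORC5, a subunit of the complex that marks origins, had 850 counts with si-NC and 482 with si-SRSF2, or 42.6 and 33.2 CPM, 22.1% lower (log2 ratio -0.36, interval -0.53 to -0.20). ORC1, the subunit that cycles with cell division, went from 24.3 to 20.5 CPM (485 and 297 counts, log2 ratio -0.24), and ORC4 from 58.5 to 51.6 CPM (1166 and 749 counts, log2 ratio -0.18). ORC2, ORC3 and ORC6 lay between -0.06 and -0.02, with intervals that included 0. CDC6, which helps load the helicase, had 1328 and 781 counts (66.6 and 53.8 CPM, log2 ratio -0.31, interval -0.44 to -0.18). The loader CDT1 and its inhibitor geminin (GMNN) had log2 ratios of -0.12 and -0.07, and both intervals included 0. CDT1 counts per 100 GMNN counts were 112 in si-NC and 107 in si-SRSF2 (ratios of 1.12, 1.02 to 1.23, and 1.07, 0.958 to 1.21).

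Among the 12 helicase genes, MCM6, MCM10 and GINS3 were at least 20% lower (3 of 12, against 13.3% of all tested genes and 9.02% of genes with at least 20 CPM), and the median log2 ratio was -0.11. MCM6, a subunit of the MCM2-7 ring, had 2364 counts with si-NC and 1313 with si-SRSF2, or 119 and 90.5 CPM (log2 ratio -0.39, interval -0.49 to -0.29). MCM10, which helps to activate the assembled helicase, had 1386 and 776 counts, or 69.5 and 53.5 CPM (log2 ratio -0.38, interval -0.51 to -0.25). GINS3 was the member with the fewest counts, 200 and 113, and its interval was wide (log2 ratio -0.35, interval -0.71 to -0.03). MCM4 had 5138 and 3185 counts (log2 ratio -0.23), MCM2 had 2065 and 1356 (-0.15) and MCM7 had 4848 and 3210 (-0.14), all with intervals below 0. MCM5 had 1221 and 838 counts (-0.08, interval -0.21 to 0.04). MCM3, in contrast, had 1917 and 1512 counts and went from 96.2 to 104 CPM (log2 ratio 0.11, interval 0.02 to 0.21).

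The subunits of the ring, which is built from 1 copy of each, had log2 ratios between -0.39 (MCM6) and 0.11 (MCM3). MCM6 had 123 counts per 100 MCM3 counts with si-NC and 86.8 with si-SRSF2 (ratios of 1.23, 95% interval 1.16 to 1.31, and 0.868, 0.806 to 0.936), a pair chosen after the values were seen. No sampled 31-base stretch of either gene occurred elsewhere, and no other gene overlapped their exons. CDC45 (588 and 434 counts) and the GINS subunits GINS1, GINS2 and GINS4 had log2 ratios between -0.09 and 0.09 with intervals that included 0.

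The clamp, clamp loader, RPA and flap-processing genes had a median log2 ratio of -0.05 over 11 genes. PCNA, the sliding clamp, had 3575 counts with si-NC and 2737 with si-SRSF2, and was slightly higher in si-SRSF2 at 189 CPM against 179 CPM (log2 ratio 0.07, with an interval from just under 0 to 0.14). The 5 RFC subunits had log2 ratios of -0.18 (RFC5), -0.08 (RFC1), -0.05 (RFC3), -0.03 (RFC4) and 0.00 (RFC2). Only the interval of RFC5 (938 and 601 counts) was below 0, or 20% of the 5. Intervals below 0 were found for 26.7% of all tested genes and 32.7% of genes with at least 20 CPM. Of the RPA subunits, RPA1 had 2234 and 1426 counts (112 and 98.3 CPM, log2 ratio -0.19, interval -0.29 to -0.09), while RPA2 and RPA3 had log2 ratios of 0.03 and -0.05. FEN1, the nuclease that trims Okazaki fragment flaps, had 1198 and 661 counts, or 60.1 and 45.5 CPM (log2 ratio -0.40, interval -0.54 to -0.26). LIG1, the ligase that seals them, had 1031 and 605 counts, or 51.7 and 41.7 CPM (log2 ratio -0.31, interval -0.46 to -0.17). FEN1 and LIG1, which act one after the other on the lagging strand, were the lowest of this class. FEN1 had 33.5 counts per 100 PCNA counts with si-NC and 24.2 with si-SRSF2 (ratios of 0.335, 95% interval 0.314 to 0.358, and 0.242, 0.222 to 0.263), again a pair chosen after its values were seen.

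The deoxynucleotide synthesis genes were nearly level between the libraries. RRM2, the S phase subunit of ribonucleotide reductase, had the highest CPM of the set, with 6396 counts with si-NC and 4668 with si-SRSF2, or 321 and 322 CPM (log2 ratio 0.00, interval -0.05 to 0.06). The large subunit RRM1 had 3786 and 2710 counts, or 190 and 187 CPM (log2 ratio -0.02, interval -0.10 to 0.05). Their intervals are among the narrowest of the set because of these counts. Thymidine kinase 1 (TK1) had 987 and 679 counts (log2 ratio -0.08, interval -0.23 to 0.06). Thymidylate synthase (TYMS) had 1589 and 1250 counts and went from 79.7 to 86.1 CPM (log2 ratio 0.11, interval 0.00 to 0.22), but 47.9% of its exon length is overlapped by ENOSF1 and TYMSOS on the opposite strand, and the strand setting of the counting is not stated. The class median was -0.01, and it was 0.01 under upper-quartile scaling, so that its sign depended on the scaling.

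The fork and chromatin factors besides WDHD1 ranged from -0.33 to 0.32. CLSPN (claspin), the adaptor that relays fork stress to the kinase CHK1, had 1135 counts with si-NC and 656 with si-SRSF2, or 56.9 and 45.2 CPM (log2 ratio -0.33, interval -0.47 to -0.19). UHRF1, which recruits the maintenance methyltransferase to newly copied DNA, had 1912 and 1179 counts (log2 ratio -0.24, interval -0.35 to -0.13), although over 10% of its sampled 31-base stretches occurred elsewhere. TIPIN, of the fork protection complex, was the only member at least 25% higher, with 224 and 206 counts, or 11.2 and 14.2 CPM (log2 ratio 0.32, interval 0.06 to 0.62). Of all tested genes 11.8% had a ratio as high or higher. With a pseudocount of 2 CPM the log2 ratio of TIPIN was 0.29, short of the limit of 25% higher. Its partner TIMELESS had 1233 and 830 counts and a log2 ratio of -0.11 (interval -0.24 to 0.01). A ribosomal protein pseudogene overlaps 21.1% of the exon length of TIPIN on the same strand, and 16.5% of its sampled stretches occurred in other genes. The histone chaperone subunits CHAF1A and CHAF1B had log2 ratios of -0.18 and 0.00, and DTL, which directs the destruction of CDT1, had 2942 and 2093 counts and a log2 ratio of -0.03.

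**Figure D3:**
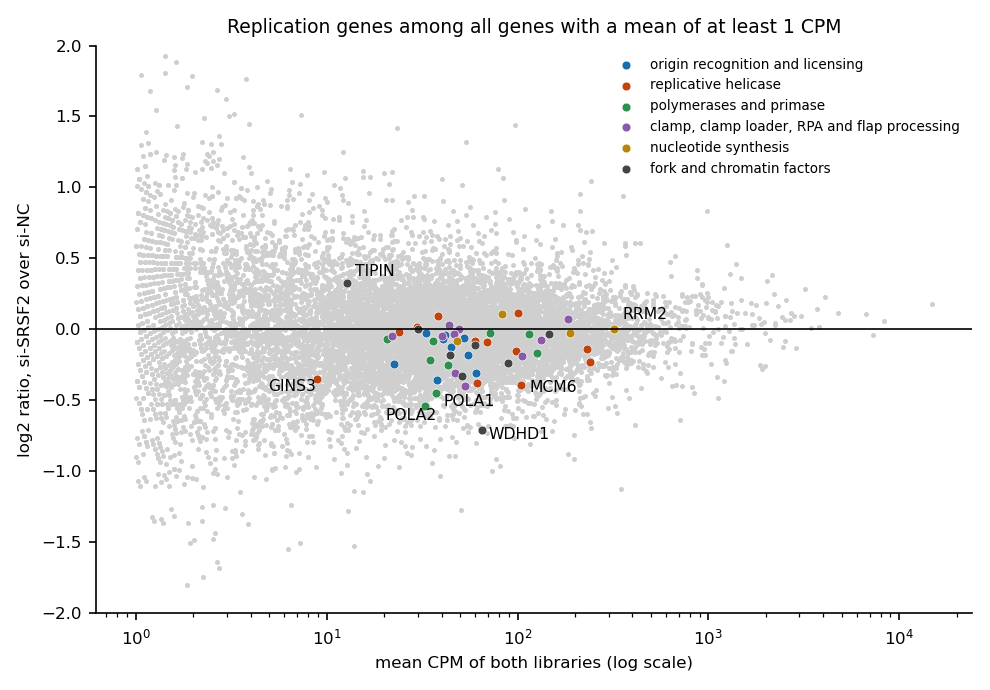
Mean CPM of both libraries (horizontal axis, log scale) against the log2 ratio of si-SRSF2 over si-NC (vertical axis) for all 12620 tested genes (grey; 13 genes beyond a log2 ratio of 2 in size are not drawn) and the 53 replication genes (coloured by role). The replication genes have mean levels of 8.91 to 321 CPM and lie inside the cloud of other genes, with WDHD1 near its lower edge.

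Levels were compared between genes per length of the canonical transcript, as RPKM computed from the counts. In si-NC the members ranged from 4.56 RPKM (GINS3) to 141 RPKM (PCNA) with a median of 20.4, and in si-SRSF2 from 3.54 to 148 RPKM, again GINS3 and PCNA, with a median of 17.1. After PCNA the highest levels in si-NC were those of MCM7 (98.6 RPKM), RRM2 (98.5), POLD2 (72.2), MCM4 (63.5) and RRM1 (60.5). Within the MCM2-7 ring the highest subunit, MCM7, was 5.57-fold above the lowest, MCM5 (17.7 RPKM), in si-NC and 5.37-fold in si-SRSF2. In the DNA polymerase alpha-primase complex the order was PRIM1, PRIM2, POLA2 and POLA1 in both libraries, from 26.2 to 7.83 RPKM in si-NC and from 22.5 to 5.71 RPKM in si-SRSF2. WDHD1 went from rank 38 of 53 in si-NC (13.4 RPKM) to rank 46 (8.16 RPKM), POLA2 from 43 to 48, and MCM6 from 12 to 17. MCM3 moved from rank 13 to 8 and TIPIN from 52 to 45. These ranks depend on the length used. With the union of all exons of a gene, POLD1 rather than POLD2 was the highest subunit of DNA polymerase delta, and the span within that complex was 2.18-fold in place of 7.39-fold.

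**Figure D4:**
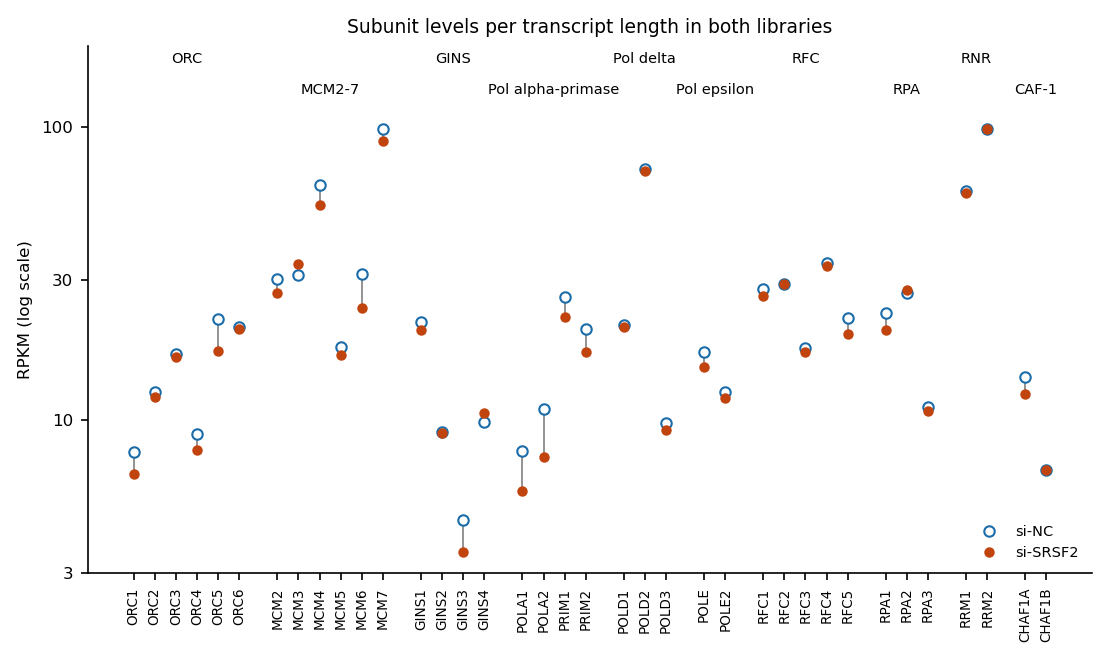
RPKM per canonical transcript length (vertical axis, log scale) of the subunits of 10 complexes in si-NC (open circles) and si-SRSF2 (filled circles), 1 library each; Pol is DNA polymerase and RNR ribonucleotide reductase. POLA1 and POLA2 lie at 7.83 and 10.9 RPKM in si-NC and at 5.71 and 7.47 RPKM in si-SRSF2, while the RRM1, RRM2, POLD1 and POLD2 circles nearly coincide.

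Promoter sequence was examined as a feature that did not enter the choice of genes. RefSeq promoter windows (GRCh38.p14, 250 bases before to 50 after the start of the gene in RefSeq) were matched by symbol for 47 of 53 members. An E2F-type motif, spelled TTTCCCGC, TTTCGCGC, TTTGCCGC or TTTGGCGC and read on both strands, was present in 21 of 47 (44.7%), against 5.59% of 8967 tested genes with a window and 3.33% of all 27305 windows. CCAAT, on both strands, was present in 28 of 47 (59.6%), against 37.0% and 35.7%, and TTTGAA, also on both strands, in 1 of 47 (2.13%, RRM1), against 9.32% and 15.4%. The motif of the E2F type was present in 5 of the 9 members that were at least 20% lower and in 16 of the other 38, and in 3 of the 8 with a log2 ratio above 0. The median log2 ratio was -0.14 in members with it and -0.08 in members without it, and -0.04 and -0.03 in all tested genes with and without it. WDHD1, the lowest member, had neither an E2F-type motif nor CCAAT in its window. A match is a description of the letters and does not show binding.

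Of the E2F-type motifs that lay wholly before the RefSeq start, the one nearest to it is shown with its flanks for 3 of the lowest members and for 3 members with log2 ratios above 0, 5' to 3' on the strand of the gene, with the motif in capitals. MCM3 held 2 matches in its window, of which the one not wholly before that start is not shown. MCM6 held 4 matches in its window and 2 separate stretches before that start, of which only the nearest is shown. Coordinates are those of the printed stretches. The motifs of POLA1 (chrX:24693761-24693808, plus strand), POLA2 (chr11:65261889-65261936, plus strand) and MCM6 (chr2:135876502-135876553, minus strand) ended 129, 45 and 78 bases before the start that RefSeq gives.
POLA1: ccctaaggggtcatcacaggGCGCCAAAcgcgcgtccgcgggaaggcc
POLA2: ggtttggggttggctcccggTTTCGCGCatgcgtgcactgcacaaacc
MCM6: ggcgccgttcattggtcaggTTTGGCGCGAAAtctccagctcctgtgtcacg
In MCM6 the capitals hold 2 overlapping motifs, 1 on each strand. The motifs of MCM3 (chr6:52284889-52284936, minus strand), TYMS (chr18:657594-657641, plus strand) and PCNA (chr20:5126654-5126701, minus strand) ended 166, 31 and 51 bases before the RefSeq start. The GENCODE 44 gene starts, from which the gene coordinates above are taken, lie further upstream for 4 of these genes, so that the motif ended 84 bases before that start in POLA1, 27 in MCM3 and 47 in PCNA, and its last 4 bases lay at or past it in POLA2.
MCM3: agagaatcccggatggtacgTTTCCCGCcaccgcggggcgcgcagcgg
TYMS: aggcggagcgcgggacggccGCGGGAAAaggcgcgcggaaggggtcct
PCNA: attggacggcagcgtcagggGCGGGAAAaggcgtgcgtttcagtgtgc
The motif was thus found both in members that were lower and in members that were not.

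Longer transcripts tended to have lower ratios within the set. Across the 53 genes, Spearman's rho between the length of the canonical transcript and the log2 ratio was -0.41, and across 11294 tested genes with a length it was -0.11. All points come from the same 2 libraries and genes are not independent replicates, so no test was made. The rho with the GC content of the transcript was 0.02 in the set and 0.03 in all tested genes, and that with mean CPM was 0.00 and -0.04. Median lengths were 3125 bases in the set and 3252 bases in all tested genes.

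Other genes of the pathway are given beside the members from lists that were set up by function, with earlier results of these data known. Among 22 other replication factors, 15 were under 0 (68.2%, against 53.8% of all tested genes) and the median log2 ratio was -0.12. At least 20% lower were 2 genes (9.09%, against 13.3% of all tested genes and 9.02% of genes with at least 20 CPM). At least 25% higher were 0 (against 11.8% and 6.28%). The lowest was MCM8, a relative of the MCM subunits that acts in recombination, with 2336 counts with si-NC and 1198 with si-SRSF2 (log2 ratio -0.50, interval -0.61 to -0.40). The highest was MTBP, a partner of the origin-firing factor treslin, with 915 and 760 counts (log2 ratio 0.19, interval 0.05 to 0.33). Of 16 regulators of S phase entry, 15 were tested, 13 were under 0 (86.7%, against 53.8%) and the median was -0.12. In this list 2 genes were at least 20% lower and 2 at least 25% higher (13.3% each). All tested genes gave 13.3% and 11.8%, and genes with at least 20 CPM gave 9.02% and 6.28%. The list ranged from cyclin E2 (CCNE2, 1266 and 693 counts, log2 ratio -0.41, interval -0.55 to -0.28) to CUL4A, the scaffold of the ubiquitin ligase to which DTL belongs (2215 and 2218 counts, log2 ratio 0.46, interval 0.37 to 0.55). E2F1 itself, named here after its value was seen, had 930 and 662 counts and a log2 ratio of -0.03 (interval -0.18 to 0.11).

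The checkpoint list of 9 genes had a median of -0.09, with 7 under 0 (77.8%, against 53.8% of all tested genes). In this list 1 gene was at least 20% lower (11.1%, against 13.3% of all tested genes and 9.02% of genes with at least 20 CPM). At least 25% higher were 0 (against 11.8% and 6.28%). Its lowest member was WEE1, the kinase that restrains CDK activity, with 3714 counts with si-NC and 1919 with si-SRSF2, or 186 and 132 CPM (log2 ratio -0.49, interval -0.58 to -0.42). Its highest was the clamp-loading factor RAD17 (168 and 130 counts, log2 ratio 0.08, interval -0.25 to 0.43). Of 8 other chromatin replication genes, 4 were under 0 (against 53.8% of all tested genes), with a median of -0.11. At least 20% lower were 2 of the 8 (25%, against 13.3% of all tested genes and 9.02% of genes with at least 20 CPM). At least 25% higher were 0 (against 11.8% and 6.28%), and 4 intervals lay below 0 (50%, against 26.7% and 32.7%). They ranged from TONSL, which binds newly deposited histones (1678 and 892 counts, log2 ratio -0.45, interval -0.57 to -0.34), to the histone chaperone RBBP4 (4740 and 3883 counts, log2 ratio 0.17, interval 0.11 to 0.23).

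The list of 9 other nucleotide supply genes had 4 genes under 0 (44.4%, near the 53.8% of all tested genes), 5 above 0 and a median of 0.09. Of its 9 intervals 6 held 0, as did those of 6608 of the 12620 tested genes and 3440 of the 7917 with at least 20 CPM. At least 25% higher were 2 genes, RRM2B and SAMHD1 (22.2%, against 11.8% of all tested genes and 6.28% of genes with at least 20 CPM). At least 20% lower were 0 (against 13.3% and 9.02%). Its highest gene was RRM2B, the p53-inducible small subunit of ribonucleotide reductase that can stand in for RRM2 outside S phase. RRM2B had 3047 counts with si-NC and 3956 with si-SRSF2, or 153 and 273 CPM (log2 ratio 0.83, interval 0.77 to 0.90), and was the only gene of these 5 lists past 1.5-fold. The counts of RRM2B per 100 counts of RRM2 were 47.6 in si-NC and 84.7 in si-SRSF2 (ratios of 0.476, 95% interval 0.456 to 0.497, and 0.847, 0.812 to 0.884), a pair also chosen with its values known. SAMHD1, which breaks down deoxynucleoside triphosphates and is named here after its value was seen, had 703 and 717 counts (log2 ratio 0.48, interval 0.33 to 0.64). The lowest gene was CTPS1, which makes CTP from UTP, with 1357 and 897 counts (log2 ratio -0.14, interval -0.26 to -0.02).

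**Figure D5:**
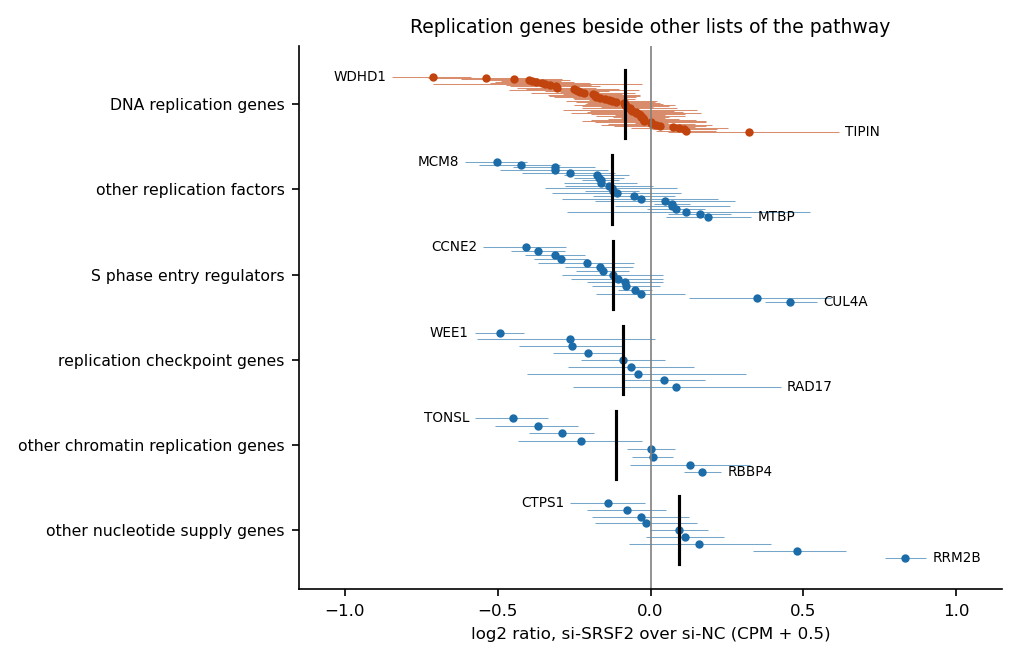
Log2 ratio of si-SRSF2 over si-NC (points, CPM + 0.5) with the 95% counting interval (thin lines) for the DNA replication genes and 5 other lists of the pathway; black bars are medians, and the lowest and highest gene of each list are named. The medians lie between -0.12 and -0.08 except that of the other nucleotide supply genes (0.09), where RRM2B stands at 0.83.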

How the data were processed

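RNA from 1 si-NC and 1 si-SRSF2 culture of RKO cells was sequenced. After trimming and quality filtering, the authors aligned the reads to GRCh38 (HISAT2 2.0.4 in the submitters' processing notes) and counted reads per gene with HTSeq, and they deposited raw counts by symbol. Their methods name Ensembl 100, although 16148 listed symbols have the LOC form; the strand setting of the counting is not given in the sources used here. Counts were scaled by TMM (edgeR 4.0.16, R 4.3.3), and genes with a mean of 1 CPM were kept. Log2 ratios used a pseudocount of 0.5 CPM, with 95% Clopper-Pearson intervals (SciPy 1.17.1). RPKM used GENCODE 44 lengths. Scripts were tested on simulated data. The members and lists were chosen with earlier results of these data known. The rule for named genes took all 53 members, SRSF2, and in each other list the lowest, the highest and any gene past 1.5-fold. Alternatives were DESeq2 1.42.0 size factors, upper-quartile and total-count scaling, other pseudocounts and filters, and leaving out uncertain members. Shared sequence was sampled as 31-base stretches every 10 bases. No p-value was computed. In the nucleotide supply list, 1 gene is not reported here, and the list was summarised without it.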

Additional observations from a re-analysis of the deposited data

How the results depend on the processing

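No paired analysis was possible because a single library stood for each group, and for the same reason no replicate could be left out. Over the alternatives, the median log2 ratio of the members ranged from -0.11 to -0.06, the number with a log2 ratio under 0 from 40 to 43 and the number at least 20% lower from 7 to 9. The ratio of WDHD1 ranged from -0.71 to -0.69 and that of SRSF2 from -1.003 to -0.973. With a pseudocount of 2 CPM, 0 members in place of 1 were at least 25% higher, as TIPIN lay just past that limit and a larger pseudocount shrinks low genes. Restricting the background to genes with at least 20 CPM gave 9.02% at least 20% lower, 6.28% at least 25% higher and 55.6% under 0. Without the 32 members that share over 10% of sampled stretches or overlap any exon of another gene, the median was -0.11. Without those sharing, or overlapped over, more than 10%, a set chosen after seeing the data, 35 members gave -0.08. Upper-quartile scaling moved the median of all tested genes from -0.02 to 0.00. Of 432 alternatives for single genes, 0 left the counting interval. How many intervals lay wholly above or below 0 was not counted again over the alternatives. Depth limits GINS3 and TIPIN most, with 200 and 224 counts in si-NC.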
